A study of Homo sapiens with 8 samples.

Results

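The comparison described here sets SKBR3 cells given E2-BSA together with ICI against SKBR3 cells given E2-BSA together with G15. It covers all 19775 genes that the array measures through at least 1 probe set with a single gene symbol, and it uses 2 of the 8 arrays of the series. SKBR3 is a human breast cancer line with an amplified ERBB2 (HER2) gene, and E2-BSA is estradiol coupled to bovine serum albumin. Both groups were first kept in steroid-depleted medium (10% charcoal-stripped serum, 4 h) and then given E2-BSA at 1e-06 M for 3 h. The first group also received ICI at 1e-05 M and the second G15 at 1e-05 M, so the antagonists were compared at a matched dose and time. The other conditions, also of 3 h and with 1 array each, were E2-BSA alone at 1e-06 M, G15 alone at 1e-05 M, estradiol at 1e-06 M, BSA at 1e-06 M, 0.1% ethanol and untreated cells. ICI alone was not analysed here. All arrays come from this 1 cell line, and the labels do not say whether they come from separate cultures.

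Estrogens act through the nuclear receptors ESR1 and ESR2, which bind DNA, and through GPER1, a G protein-coupled receptor of the cell membrane. Ligand-bound GPER1 is known to release ligands of EGFR and so to feed the MAP kinase cascade, which switches on immediate early genes such as EGR1 and FOS. G15 is an antagonist of GPER1. The labels give ICI only by that abbreviation. A conjugate of estradiol with albumin is used because the carrier is meant to keep the hormone outside the cell.

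Each value below is a log2 value centred for its probe set, so it says how an array stood relative to the others and not how abundant a transcript was. For this reason the labelled cell line could not be checked by the level of its markers. A difference is the ICI array minus the G15 array, and a positive difference means higher with ICI. With 1 array a side there is no replicate error, no test and no interval for any difference, and the words higher and lower describe these 2 arrays only. Treatment, culture and array cannot be told apart, nor can fewer cells of a type and less RNA per cell.

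Over all genes the difference between the antagonists was small. Its median was 0.02, its middle 50% of genes lay between -0.08 and 0.12, and its SD over genes was 0.174, against 0.166 for BSA minus untreated cells, a pair without hormone or antagonist. A difference of at least 1.5-fold was found for 56 genes higher with ICI (0.283% of genes) and 49 lower (0.248%), together 105 (0.531%). BSA against untreated cells gave 110 such genes (0.556%), a share near that between the antagonists. At 2-fold, 1 gene was higher (ALPP, 0.00506%) and 1 lower (C3orf33, 0.00506%), against 6 genes (0.0303%) for BSA minus untreated cells. Against G15 alone, which shares the ICI array, 6 genes were 2-fold lower with E2-BSA+ICI (0.0303%). Among the 21 pairs of arrays that leave out ethanol, the SD over genes ran between 0.132 and 0.218 and the count at 1.5-fold between 35 and 316. The ethanol array stood apart: in its pairs the SD ran between 0.276 and 0.337 and the count between 540 and 1079.

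**Figure D1:**
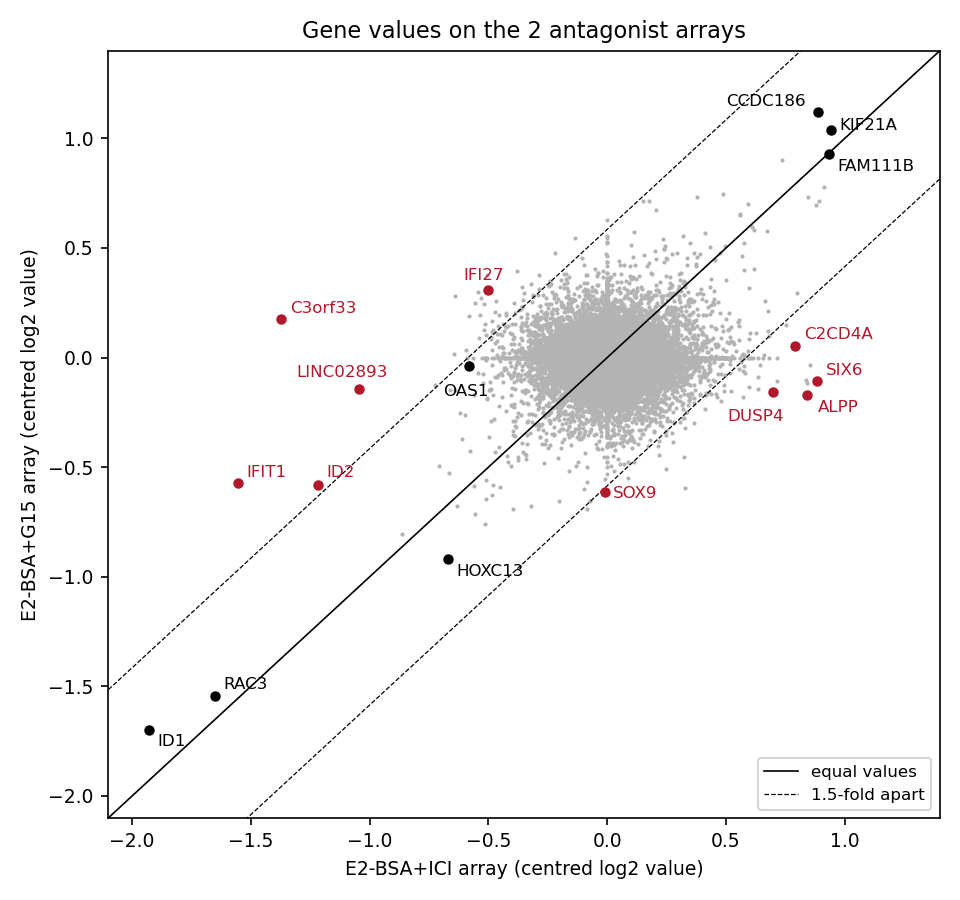
Centred log2 value of each gene on the E2-BSA+ICI array (horizontal axis) and on the E2-BSA+G15 array (vertical axis), 1 point a gene. The solid line marks equal values and the dashed lines a 1.5-fold difference; 105 of 19775 genes lie beyond them, while ID1, RAC3 and FAM111B lie far out near the solid line.

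The control probe sets, which track labelling and RNA quality, differed between the 2 arrays. The array carries 22 pairs of control probe sets, 1 near the 5′ and 1 near the 3′ end of a transcript. Most bacterial labelling transcripts and every hybridization control transcript have 2 such pairs, of different design, so these pairs are not separate transcripts. The 5′ value relative to the 3′ value was lower with ICI for 4 of the 5 transcripts of the cell, with a median of -0.20, and higher for the other. The median for BSA minus untreated cells was 0.03, but it mixed directions. That pair gave -0.08 for ACTB and -0.13 for GAPDH, against 0.37 for 18S and 0.10 for 28S ribosomal RNA. Between the antagonists ACTB was at -0.51, GAPDH at -0.20, 18S at -0.29 and 28S at -0.15. For ACTB the G15 array was the highest of the 8 at 0.37, with ICI at -0.13 and ethanol lower still at -0.28. For GAPDH the ICI array was the lowest of the 8 at -0.16, with G15 at 0.04. The 5′ value relative to the 3′ value was lower for 8 of 9 pairs of the bacterial transcripts that serve as labelling controls. Their median was -0.28, against -0.17 for BSA minus untreated cells. It was lower for 3 of 8 pairs of the hybridization controls, with a median of 0.01. For ACTB the 5′ probe set differed by -0.67, the middle by -0.38 and the 3′ by -0.16. All 18 hybridization control probe sets were higher on the ICI array, by 0.05 to 0.54 with a median of 0.37, against a median of 0.13 for BSA minus untreated cells. The controls were looked at after the gene values had been seen, and their part in the gene differences below was not tested.

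**Figure D2:**
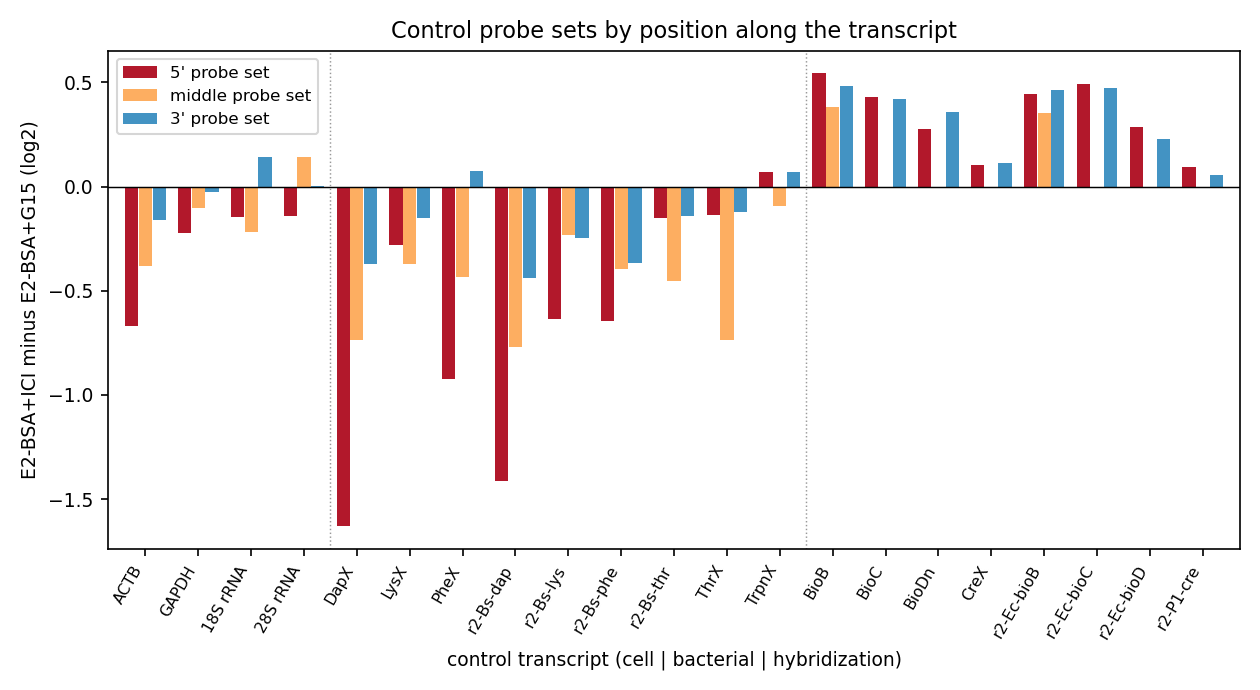
Difference in log2 value, E2-BSA+ICI minus E2-BSA+G15, for 21 of the 22 pairs of 5′ and 3′ control probe sets. The middle probe set is shown where there is a single one. Dotted lines lie between transcripts of the cell, bacterial and hybridization controls, and some transcripts appear under 2 designs. The 5′ probe sets of the bacterial dap transcript differed by -1.63 and -1.41, and the 5′ probe set of ACTB by -0.67.

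More interferon-stimulated genes were lower than higher with ICI. These genes encode antiviral proteins and are switched on when interferon-activated factors bind an element in their promoters called the ISRE. Of 39 measured genes on the list, 28 were below 0 and 11 above, with a median difference of -0.11, against 0.02 and 54.5% above 0 over all genes. IFIT1 and IFI27 were lower by at least 1.5-fold, and no member was higher by that much. With G15 alone in place of E2-BSA+G15, a comparison that shares the ICI array, the median of the list was -0.04. BSA minus untreated cells, without any antagonist, gave the same list a median of 0.14, larger in size than that between the antagonists. The median was -0.22 on the probe set with the largest SD and -0.06 without probe sets that can match several transcripts.

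The promoters of 3 of these genes, all lower with ICI, are shown out of 20 on the list that carry the ISRE core. The core was searched as GAAA, any 2 bases and GAAA again, or as TTTC, any 2 bases and TTTC on the other strand. The sequences are those of RefSeq on GRCh38.p14, 300 bases each, 250 before and 50 after the gene start, and the capitals mark the core. IFIT1 lies at chr10:89392373-89392672 (plus strand), IFI27 at chr14:94110486-94110785 (plus strand) and SAMD9 at chr7:93117930-93118229 (minus strand).
IFIT1: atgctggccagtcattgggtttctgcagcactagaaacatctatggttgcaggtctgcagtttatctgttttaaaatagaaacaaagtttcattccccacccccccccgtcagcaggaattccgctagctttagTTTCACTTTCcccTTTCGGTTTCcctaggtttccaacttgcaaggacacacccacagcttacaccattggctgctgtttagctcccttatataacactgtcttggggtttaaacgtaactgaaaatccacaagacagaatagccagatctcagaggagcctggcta
IFI27: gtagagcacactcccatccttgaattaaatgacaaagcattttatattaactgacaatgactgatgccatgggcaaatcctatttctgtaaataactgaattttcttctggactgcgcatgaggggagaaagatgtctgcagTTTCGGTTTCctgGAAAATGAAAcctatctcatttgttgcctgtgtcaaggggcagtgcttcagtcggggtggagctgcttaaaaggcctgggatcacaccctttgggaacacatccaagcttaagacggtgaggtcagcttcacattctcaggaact
SAMD9: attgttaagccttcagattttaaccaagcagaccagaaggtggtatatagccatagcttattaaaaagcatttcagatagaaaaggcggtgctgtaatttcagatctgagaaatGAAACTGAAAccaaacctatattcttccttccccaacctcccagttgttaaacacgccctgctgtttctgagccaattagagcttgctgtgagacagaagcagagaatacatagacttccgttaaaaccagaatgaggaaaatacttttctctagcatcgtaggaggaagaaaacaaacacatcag
The 2 matches in IFIT1 begin at -116 and -103 from the start, those in IFI27 at -108 and -95, and the match in SAMD9 at -136; none overlap. The core was found in 20 of 32 promoters of the list (62.5%) and in 996 of 27305 promoters of all genes (3.65%). Genes on this list are known to be switched on through this element. The high share was therefore largely fixed by the choice of list and says nothing of these arrays. The 20 genes with the core had a median difference of -0.22 and 16 of them were below 0, while the 12 without it had a median of -0.02 and 8 below 0. Those with the core ran between -0.98 and 0.40 and those without it between -0.54 and 0.36, so the 2 groups overlapped. Whether the element played a part was not tested. The motif search and this division were chosen after the values were seen, and a match is a description of letters only.

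IFIT1, an RNA-binding antiviral protein, stood at -1.56 with ICI and -0.57 with G15, a difference of -0.98. On the other 6 arrays it ran between -1.25 and 0.34, and the value of -1.25 belonged to estradiol. Both antagonist arrays and the estradiol array were therefore the 3 lowest, with ICI the lowest of all. G15 alone came next at -0.48, near the -0.57 of E2-BSA with G15. After quantile normalization the IFIT1 difference between the antagonist arrays was -0.47. IFI27, an interferon-induced mitochondrial protein, was at -0.50 with ICI and 0.31 with G15. The difference was -0.81, but IFI27 was also at -0.40 with E2-BSA, -0.37 in untreated cells and 0.88 with BSA, so it varied widely without any antagonist.

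OAS1, which senses double-stranded RNA, was at -0.58 with ICI and -0.04 with G15, and its 2 probe sets differed by -0.57 and -0.51. SAMD9, an antiviral restriction factor, was at -0.49 with ICI and -0.15 with G15. It stood at 0.52 with E2-BSA, and its difference from E2-BSA was -1.02 with ICI and -0.67 with G15, values that share the E2-BSA array. It was 1 of 8 genes (0.0405%) at least 2-fold lower with ICI than with E2-BSA. IFI44L, DDX60 and MX1, named after their values were seen, differed by -0.56, -0.56 and -0.51. The antigen-processing genes TAP1 and PSMB9, named in the same way, went the other way, by 0.40 and 0.36.

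The ID genes encode helix-loop-helix proteins that block differentiation factors and are direct targets of BMP signalling. The list of ID proteins and BMP feedback had a median difference of -0.02, with 9 genes above 0 and 11 below of 22. ID2 was the 1 member past 1.5-fold. It was at -1.22 with ICI and -0.58 with G15, a difference of -0.64, and both of its probe sets were lower, by 0.72 and 0.55 in size. On the other 6 arrays ID2 ran between -1.24 and 0.22, the low value being that of estradiol. ICI and estradiol lay close together, and G15 lay between them and the rest. After quantile normalization the ID2 difference was -0.37.

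ID1 was low on both antagonist arrays, at -1.93 with ICI and -1.70 with G15, and at -2.02 with estradiol, while the other 5 arrays ran between -0.34 and 0.17. ID3 and the inhibitory SMAD7, named after their values were seen, were also low on both, at -0.56 and -0.66 on the ICI array, against -0.71 and -0.53 on the G15 array. Against G15 alone, the list had a median of -0.29 in place of -0.02. ID4 gave no single answer, since its 5 probe sets differed by -0.77 to 0.64.

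**Figure D3:**
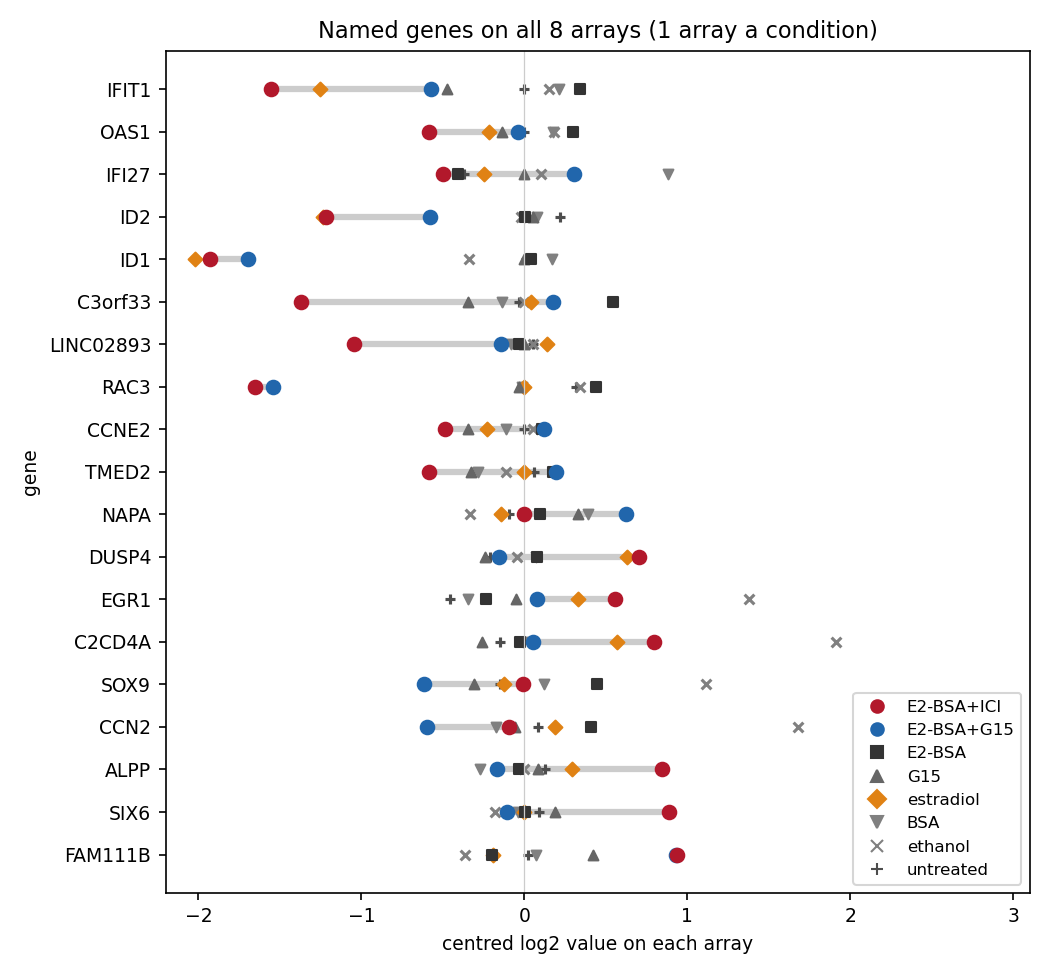
Centred log2 values of named genes on all 8 arrays, 1 symbol a condition; the grey bar joins E2-BSA+ICI to E2-BSA+G15. For ID2, IFIT1 and DUSP4 the estradiol array lies near the ICI array, and for RAC3 both antagonist arrays lie below the other 6.

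DUSP4, a nuclear phosphatase that switches off MAP kinases and is itself induced by them, was higher with ICI. It stood at 0.70 with ICI and -0.16 with G15, a difference of 0.86, and its 3 probe sets differed by 1.13, 0.81 and 0.64. Estradiol gave 0.63, and the other 5 arrays ran between -0.24 and 0.08, so the ICI and estradiol arrays were high and the remaining 6 low. Among MAPK feedback inhibitors 12 of 16 lay above 0, the median being 0.13, and DUSP4 was the 1 member past 1.5-fold. ERRFI1, an inhibitor of EGFR, differed by 0.35. DUSP1 and DUSP6, named after their values were seen, differed by 0.31 and 0.25.

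Immediate early genes, which are transcribed within minutes of a growth signal, lay above 0 in 19 of 25 cases, with a median of 0.19 and no member past 1.5-fold. BSA minus untreated cells, without any antagonist, gave a median of 0.11 for the same list. EGR1, a zinc finger factor, was at 0.56 with ICI and 0.08 with G15, and its 3 probe sets differed by 0.54, 0.54 and 0.35. The other 6 arrays ran between -0.46 and 1.38, the highest being ethanol, the vehicle of estradiol. FOS, a subunit of AP-1, was at 0.44 with ICI and 0.08 with G15, and at 2.47 with ethanol. IER3, a survival factor, was at 0.26 with ICI and -0.23 with G15.

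The EGR1 promoter is shown because it carries 2 CArG boxes, the element bound by serum response factor, marked in capitals. It lies at chr5:138465229-138465528 on the plus strand of GRCh38.p14 in RefSeq, and the boxes begin at -105 and -83 from the start.
EGR1: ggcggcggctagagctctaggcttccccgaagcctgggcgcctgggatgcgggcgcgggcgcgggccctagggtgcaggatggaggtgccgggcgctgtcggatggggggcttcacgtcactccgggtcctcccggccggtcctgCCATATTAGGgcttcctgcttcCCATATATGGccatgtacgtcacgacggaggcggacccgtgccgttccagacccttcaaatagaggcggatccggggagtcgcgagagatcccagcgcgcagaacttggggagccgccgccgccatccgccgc
A CArG box was found in 2 of 17 promoters of the immediate early list (11.8%) and in 1.29% of the 27305 promoters of all genes. The search was on both strands and was chosen after the values were seen. These shares describe the list and say nothing of these arrays.

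Genes linked to GPER1 in earlier work had a median difference of 0.18, with 13 of 15 above 0 and none past 1.5-fold. CCN2, a secreted matrix protein, was at -0.10 with ICI and -0.60 with G15, and the other 6 arrays ran between -0.17 and 1.68. The value of 1.68 belonged to ethanol, and the next highest was 0.41 with E2-BSA. Here the G15 array was the lowest of the 8, and the ICI array was within the range of the others. Against G15 alone the median of the list was -0.04, with 7 of 15 genes above 0, so the direction did not hold with that array. Without probe sets that can match several transcripts the median was 0.07. CXCL8, a neutrophil chemokine, differed by 0.48, or by 0.20 on the probe set with the largest SD.

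SOX9, a transcription factor of progenitor cells, was the 1 member of the list of TGF-beta and YAP targets past 1.5-fold. It was at -0.01 with ICI and -0.61 with G15, and its 2 probe sets differed by 0.78 and 0.43. The G15 array was the lowest of the 8, as for CCN2. Of the 16 measured genes of the list 13 lay above 0, and their median was 0.14. Against G15 alone the median of the list was 0.03, with 10 of 16 genes above 0, and SOX9 differed by 0.30.

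**Figure D4:**
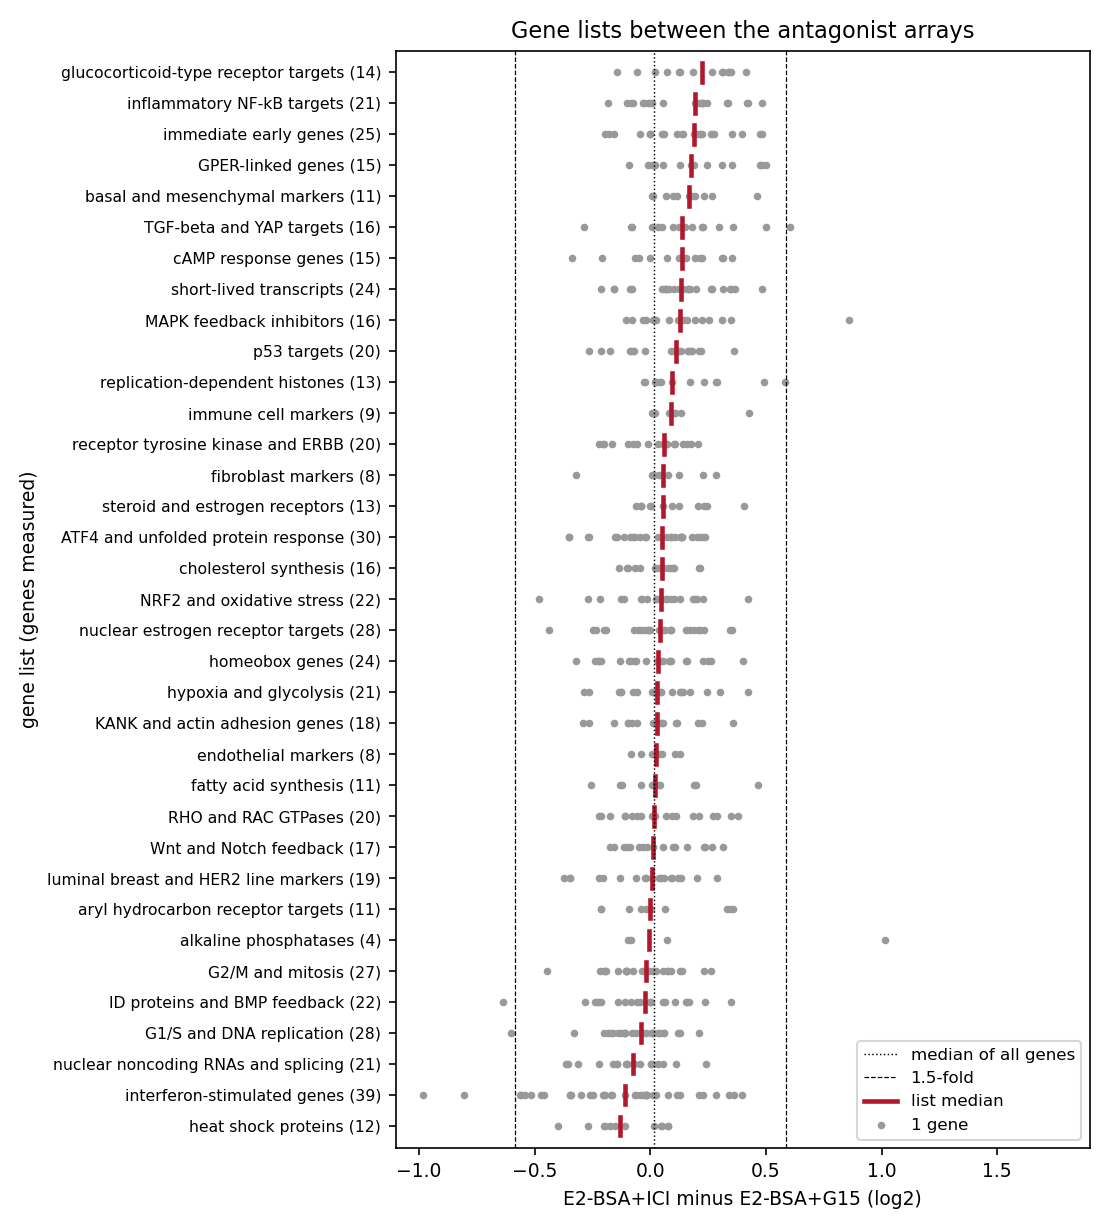
Difference in log2 value, E2-BSA+ICI minus E2-BSA+G15, for the members of gene lists (points) with the median of each list. The interferon list lies mostly below 0 and the glucocorticoid-type list mostly above it.

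Other lists were shifted by amounts of the same order. Targets of glucocorticoid-type receptors had a median of 0.22 and 12 of 14 above 0, led by ZBTB16 (0.42), and inflammatory NF-kB targets a median of 0.19 and 13 of 21 above 0. The NF-kB median depended on the probe sets used: it was 0.09 with the median of the probe sets of a gene or the probe set with the largest SD, and 0.05 without those that can match several transcripts. Replication-dependent histones had a median of 0.09 with 11 of 13 above 0, and H1-2 at 0.58 fell just short of 1.5-fold. Heat shock proteins had a median of -0.13 with 7 of 12 below 0, and genes of nuclear noncoding RNA and splicing a median of -0.08 with 14 of 21 below 0. Against G15 alone the splicing list turned direction, with a median of 0.03 and 12 of 21 above 0. Targets of the nuclear estrogen receptors were near the level of all genes, with a median of 0.04 and 16 of 28 above 0. So were cholesterol synthesis, with a median of 0.05, and the markers of luminal breast and HER2-positive lines, with a median of 0.01.

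Some lists of markers of cell types that a culture of SKBR3 should not hold lay above 0 too. All 9 measured immune markers were above 0, with a median of 0.09, led by the T cell gene CD3E (0.43), and all 11 basal and mesenchymal markers were above 0, with a median of 0.17, or 0.08 over those with several probe sets, led by KRT5 (0.46). Fibroblast markers had a median of 0.06 and endothelial markers 0.03, against 0.02 over all genes. BSA minus untreated cells gave the immune list a median of -0.15, larger in size than that between the antagonists. Against G15 alone, 6 of 9 immune and 8 of 11 basal and mesenchymal markers were above 0. The same held for 4 of 8 fibroblast and 1 of 8 endothelial markers. Since levels are not given, it is not known whether any of these markers was expressed, and what part such a shift has in the lists above was not tested.

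The receptors differed little. ESR1 differed by -0.06, with 9 probe sets between -0.67 and 0.25, so that the probe set with the largest SD alone was past 1.5-fold. ESR2 differed by 0.13, with probe sets between -0.21 and 0.43, and GPER1 by 0.25, with probe sets at 0.27 and 0.22. EGFR differed by 0.18 and all 9 of its probe sets were above 0. ERBB2 differed by -0.20, with probe sets between -0.48 and 0.01. As the mean of its probe sets, none was past 1.5-fold.

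The single genes with the largest differences rested mostly on 1 probe set each. Of the 105 genes past 1.5-fold, 88 had 1 probe set, while 9252 of all 19775 genes had 1. ALPP, the placental alkaline phosphatase, was at 0.84 with ICI and -0.17 with G15, and the other 6 arrays ran between -0.27 and 0.29. Its near-identical relative ALPG differed by -0.10. C3orf33 was at -1.37 with ICI and 0.18 with G15, and the other 6 arrays ran between -0.35 and 0.55, so the ICI array stood alone. LINC02893, a long noncoding RNA, was at -1.04 with ICI and -0.15 with G15, and the other 6 arrays ran between -0.08 and 0.14.

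Several of the genes highest with ICI are known for tissues other than breast. SIX6, a homeobox factor of the eye and pituitary, differed by 0.99, NPY5R, a neuropeptide Y receptor, by 0.89, and INSL6, an insulin-like peptide of the testis, by 0.82. LINC00558 differed by 0.96 and IGFL1 by 0.92. On the low side stood PRR9 (-0.92), the serotonin receptor HTR1B (-0.81) and 2 pseudogenes, ACTBP9 (-0.89) and UBBP1 (-0.84). Pseudogenes share sequence with their parent genes, actin and ubiquitin, so these values are uncertain: the probes may also pick up the parent transcripts. C2CD4A was at 0.79 with ICI and 0.05 with G15, with 0.57 under estradiol and 1.91 under ethanol.

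Of the genes past 1.5-fold, 17 had several probe sets. All their probe sets lay on 1 side, which a mean far from 0 largely fixes. TMED2, a cargo receptor of the early secretory pathway, was at -0.58 with ICI and 0.19 with G15, with probe sets between -1.12 and -0.24. NAPA, the alpha-SNAP protein of membrane fusion, was at 0.00 with ICI and 0.63 with G15, and there the G15 array was the highest of the 8. CCNE2, a cyclin that drives entry into S phase, was at -0.49 with ICI and 0.12 with G15, and its difference of -0.60 was -0.38 without shared probe sets. THAP5 differed by -0.80, its probe sets by -1.30 and -0.30. On the higher side were BNC1, a basal epithelial zinc finger protein (0.64), and KLRG2 (0.59). With G15 alone as comparator, the differences of the genes named in this paragraph kept their direction but none stayed past 1.5-fold. They were -0.25 for TMED2, -0.33 for NAPA, -0.14 for CCNE2, -0.43 for THAP5, 0.55 for BNC1 and 0.36 for KLRG2.

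**Figure D5:**
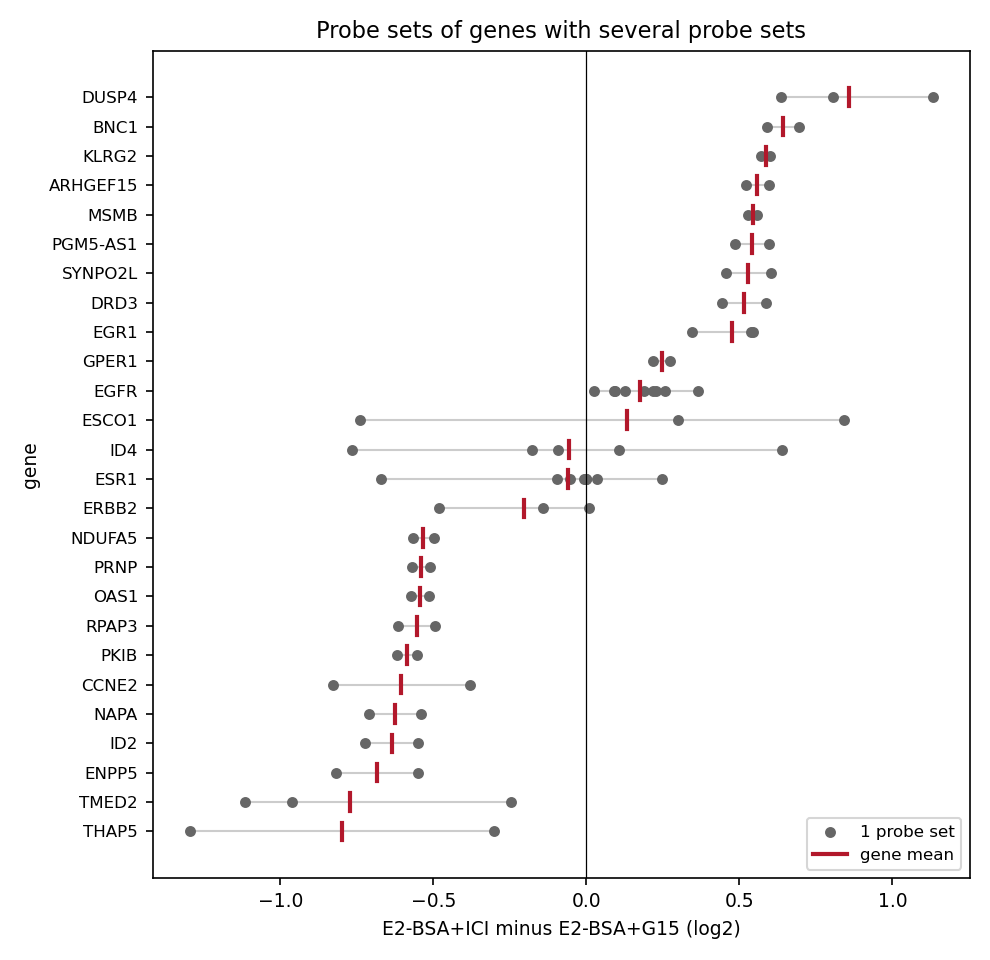
Difference in log2 value of each probe set, E2-BSA+ICI minus E2-BSA+G15, for named genes with several probe sets. The probe sets of DUSP4, EGR1 and OAS1 lie on 1 side of 0, and those of ID4 and ESCO1 on both.

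In the values as deposited, the ICI array was the farther one for most genes past 1.5-fold, but not after quantile normalization. As deposited, for 82 of the 105 genes it was farther than the G15 array from the median of the other 6, for 42 of the 56 higher genes and 40 of the 49 lower ones. After quantile normalization the ICI array was farther for 60 of 119 genes past 1.5-fold (50.4%) and the G15 array for 59. Among the 56 higher genes the ICI array was above all of the other 6 in 47, and the G15 array below all of them in 20. Among the 49 lower genes the ICI array was below all of the other 6 in 45, and the G15 array above all of them in 26. These genes were picked for the difference between these 2 arrays, so the counts describe them and carry no test. The same shares over all genes are not given, so the counts do not say which array was farther out in general.

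Some genes past 2-fold against E2-BSA differed little between the antagonist arrays. RAC3, a small GTPase that shapes the actin skeleton, was at -1.65 with ICI and -1.54 with G15, while the other 6 arrays ran between -0.03 and 0.44. FAM111B, a protease linked to DNA replication, was at 0.93 on both. The kinesin KIF21A was at 0.94 with ICI and 1.04 with G15, but 1 of its 2 probe sets carried this, at 2.07 with ICI and 2.08 with G15, while the other was at -0.19 with ICI and 0.00 with G15. HOXC13, a homeobox gene of hair and nail, was at -0.67 with ICI and -0.92 with G15, and at -0.70 with estradiol. CCDC186 was at 0.89 with ICI and 1.12 with G15, which rested on 1 of its 3 probe sets, at 2.80 with ICI and 2.71 with G15. G15 alone stood at 0.42 for FAM111B, 0.56 for KIF21A and 0.50 for CCDC186, and at -0.03 for RAC3.

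Set against E2-BSA alone, 316 genes (1.60%) were past 1.5-fold with ICI and 157 (0.794%) with G15. These comparisons share the E2-BSA array. That array was past 1.5-fold from G15 alone in 279 genes and from BSA in 198, but from estradiol in 76 and from untreated cells in 69. The part of the antagonists in these counts was not tested. DUSP4, ID2 and IFIT1 had like values with ICI and with estradiol. So did ID1 (-1.93 and -2.02) and HOXC13 (-0.67 and -0.70), but these were low with G15 too. Over 19775 genes on 4 separate arrays, the difference between antagonists and that between estradiol and untreated cells had a Pearson correlation of 0.07 and a Spearman correlation of 0.08, which is weak. Estradiol was past 1.5-fold from untreated cells in 35 genes and from ethanol, its vehicle, in 673. No correlation with ethanol as the comparator is given. A change shared by both antagonist arrays cancels in their difference, so this correlation does not say how alike the ICI and estradiol arrays were. Genes are not independent replicates, and no p-value is given.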

How the data were processed

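Expression was measured in SKBR3 cells on Affymetrix arrays of 54675 probe sets, 1 array per condition, so the number of arrays limits the precision. The deposited table holds log2 values by the authors, between -2.27 and 7.85. Log base, summarization and normalization were not given in the sources used here, so base 2 was assumed. On every array the median is 0.00 and in every probe set at most 4 of 8 arrays lie above 0, as for values centred per probe set, so no filter on level was possible.

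Probe sets with 1 gene symbol in the platform annotation (41091, of which 41037 matched a current RefSeq record) were averaged per gene; 1801 with several symbols, 11721 with none and 62 controls were left out. The values of 1 control transcript are counted but not reported here. The values as deposited were subtracted, E2-BSA+ICI minus E2-BSA+G15, and counted at 1.5-fold and 2-fold with Python 3.11.15, numpy 2.4.6 and pandas 2.3.3. No test was made. Named were the 15 largest differences each way, up to 8 genes each way whose probe sets agree best, members of 35 gene lists past 1.5-fold and up to 2 more per list, 5 receptors, and genes past 2-fold against E2-BSA; a selection of these, made after the values were seen, is printed. The members and lists were chosen with earlier results of these data known.

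The calculation was tested on simulated arrays with 400 known changes among 19775 genes. All were recovered with 0 false calls as deposited. With quantile normalization this held when all arrays had as many changed probe sets. When those numbers differed, 397 were recovered with 6 false calls. The planted changes lay well beyond the 2-fold line used for scoring, and the simulated noise was small. Full recovery was therefore largely fixed in advance, so it checks the arithmetic and says nothing of the calls at 1.5-fold. Other scalings, probe set summaries and filters were tried as alternatives, and G15 alone as comparator was added after the values were seen.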

Additional observations from a re-analysis of the deposited data

Results flagged for a closer look

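Among the 62 control probe sets, which no comparison of genes uses, 2 differed by at least 2-fold between the antagonist arrays, against 0 between BSA and untreated cells. Both lie at the 5′ end of dap, a bacterial transcript that serves as a labelling control. The first design was at -0.86 with ICI and 0.77 with G15, a difference of -1.63, against -0.28 for BSA minus untreated cells. The second was at -0.55 with ICI and 0.87 with G15, a difference of -1.41, against -0.47 for BSA minus untreated cells. The 3′ probe sets of the same transcript differed by -0.37 and -0.44. Their part in the gene differences was not tested.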

How the results depend on the processing

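No paired analysis was possible because each condition holds 1 array. Centring each array on its median could move nothing, since every array median was already 0.00. Quantile normalization left 0 genes 2-fold higher and kept 36 of the 39 named genes past 1.5-fold, with IFIT1 at -0.47 and ID2 at -0.37, and the ICI array was then farther out for 60 of 119 genes, against 82 of 105 as deposited; in simulation it was the setting that made errors when arrays had unequal numbers of changes. Taking the probe set with the largest SD gave 5 genes higher and 11 lower at 2-fold, 202 higher and 291 lower at 1.5-fold, and 349 with the ICI array farther out. Without probe sets that can match several transcripts, 2 genes were 2-fold lower. With only genes of several probe sets, 0 were higher and 0 lower at 2-fold, 5 higher and 12 lower at 1.5-fold, and the ICI array was farther out for 11; fewer genes were tested there. With G15 alone as comparator, chosen after seeing the data, 6 genes were 2-fold lower, 17 of the 39 stayed past 1.5-fold, and the medians were -0.286 for ID proteins and BMP feedback, -0.035 for genes linked to GPER1 and -0.215 for alkaline phosphatases. Of 35 list medians, 9 turned sign with that array, against 0 to 4 under the other alternatives. The cause of these moves was not tested.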

Other observations

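Of the 13522 probe sets without a single gene symbol, 1 was at least 2-fold higher and 2 were lower with ICI than with G15. BSA against untreated cells, a pair without hormone or antagonist, gave 132 higher and 2 lower among the same probe sets.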
